A study of Homo sapiens with 15 samples.

Results

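PCI-34051-treated 8CDm cells were compared with PCI-34051-treated WT cells for 18708 autosomal and mitochondrial genes. They were taken from 19535 genes that passed a filter on low counts, of 60675 genes in the count table, and genes on X and Y were left out. Both groups are HT1080, a human fibrosarcoma cell line, grown in MEM with fetal bovine serum. 8CDm cells carry a missense mutation in their endogenous gene (labelled HDAC8H143A) that inactivates KDAC8, and received 5 μM PCI-34051 for 2 days. WT cells received 5 μM PCI-34051 for 14 days. Each group had 3 biological replicates, which makes 6 of the 15 libraries of the series. Mutation and time on the compound differ between the groups at once, so their effects cannot be told apart. No untreated group and no WT group at 2 days was analysed here, and how many clones the 8CDm line holds is not given in the sources used here. WT replicate 1 stood apart from the other WT libraries (chi-square per gene 46.6 and 30.5, against 5.07 between replicates 2 and 3), and several list counts changed when it was left out. RNA was measured in bulk, so fewer cells of a type and less RNA per cell cannot be told apart. The 9 other libraries of the series, also HT1080, enter the estimate of spread and serve as a reference below. They are 6CD1m cells (labelled HDAC6H216A) and 6CD2m cells (labelled HDAC6H611A) on 1 μM Tubastatin A for 2 days, and WT cells on 1 μM Tubastatin A for 14 days.

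KDAC8 (HDAC8) is a metal-dependent enzyme that removes acetyl groups from lysines, and its best characterized substrate is SMC3, a subunit of the cohesin ring that holds sister chromatids together and folds chromosomes into loops. PCI-34051 was designed to occupy the active site of KDAC8. HT1080 cells are of mesenchymal origin, and such cells make, bind and degrade extracellular matrix and secrete growth factors and cytokines. The families described here are those of adhesion, matrix, secreted signals, the stress responses, and the transcription and translation machinery.

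Each beta protocadherin (PCDHB) gene on chromosome 5 has its own promoter and encodes a cadherin-like receptor that binds the same receptor on a neighbouring cell. In 8CDm cells 7 of the 10 PCDHB genes tested were higher than in WT cells and 0 were lower, while 3.6% of all genes tested were higher and 3.9% lower. A gene is called higher or lower here where it passed a false discovery rate of 0.001 with and without a correction for GC content, with the same sign. The RefSeq promoters (GRCh38.p14, 250 bases before the start of each gene to 50 after it) were searched for the longest run of bases held by at least 90% of the 14 PCDHB promoters given. This was GGTGGCGCT, which stood in 13 of 14 PCDHB promoters (92.9%), in 0 of 13 PCDHA and 0 of 20 PCDHG promoters, and in 0.524% of 27305 promoters of all genes (either strand). The run is shown in capitals with up to 25 bases on either side, 5′ to 3′ on the plus strand, for 4 genes that were higher in 8CDm cells and then for 3 that were tested and not called.
PCDHB13: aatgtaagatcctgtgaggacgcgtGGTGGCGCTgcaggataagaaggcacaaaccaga
PCDHB14: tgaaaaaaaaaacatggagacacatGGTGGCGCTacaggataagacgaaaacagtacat
PCDHB15: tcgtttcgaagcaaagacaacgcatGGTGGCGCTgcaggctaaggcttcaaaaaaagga
PCDHB16: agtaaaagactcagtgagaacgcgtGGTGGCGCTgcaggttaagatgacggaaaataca
PCDHB2: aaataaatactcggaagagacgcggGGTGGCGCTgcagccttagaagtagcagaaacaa
PCDHB5: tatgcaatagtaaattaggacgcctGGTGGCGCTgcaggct
PCDHB12: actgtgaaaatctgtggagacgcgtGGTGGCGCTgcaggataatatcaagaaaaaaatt
In the same order these windows lie at chr5:141213851-141213909, chr5:141223249-141223307, chr5:141245300-141245358, chr5:141182296-141182354, chr5:141094530-141094588, chr5:141135165-141135205 and chr5:141208629-141208687. All 7 windows hold the run, those of the genes that were not called included.

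PCDHB13 was read at 3.87, 3.74 and 4.51 CPM in 8CDm cells and 0.267, 0.0632 and 0.193 CPM in WT cells (log2 difference 4.45 ± 0.59 SE, adjusted p = 4.7e-05). PCDHB15 stood at 3.99, 4.28 and 4.89 CPM in 8CDm cells and 0.427, 0.253 and 0.193 CPM in WT cells (log2 difference 3.85 ± 0.39 SE, adjusted p = 3.0e-06). PCDHB14 was at 2.16, 2.06 and 3.01 CPM in 8CDm cells and 0.267, 0.0632 and 0 CPM in WT cells (log2 difference 4.27 ± 0.67 SE, adjusted p = 2.0e-04). The adjusted p-values come from edgeR (quasi-likelihood fit, Benjamini-Hochberg over all genes tested), CPM is the count scaled to library size with TMM, and a log2 difference is 8CDm minus WT. PCDHB6 rose as well (log2 difference 2.75 ± 0.51 SE, adjusted p = 7.1e-04), while PCDHB8, PCDHB11 and PCDHB16 were at the detection floor in WT cells, at most 3 counts in each library. Measured against that floor, PCDHB8 was at least 11.5-fold higher in 8CDm cells, PCDHB11 at least 5.34-fold and PCDHB16 at least 10.1-fold. The 3 that did not pass had adjusted p-values of 0.0043 (PCDHB12), 0.0052 (PCDHB2) and 0.068 (PCDHB5). Sequences are similar within this cluster, and how the counting tool divided reads among near-identical copies is uncertain. Over all 43 protocadherins tested, 9 were higher and 1 lower, with a median log2 difference of 0.37, or 0.23 with genes at the floor set to their bound, beside -0.04 over all genes. With WT replicate 1 left out 8 were higher and 0 lower. PCDHGA2 and PCDH1 were the other 2 that rose, and PCDH7, on chromosome 4, fell (log2 difference -2.56 ± 0.47 SE, adjusted p = 7.2e-04). PCDHB13 and PCDHB15 are set beside a mutant line of KDAC6 below.

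**Figure D1:**
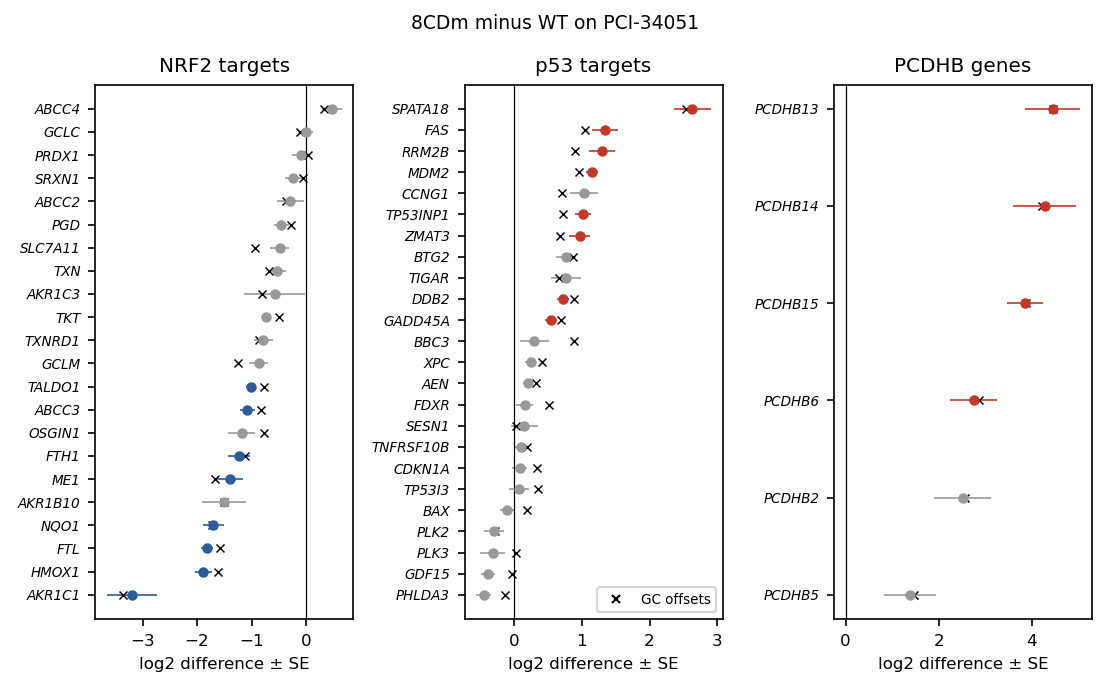
Log2 differences, 8CDm minus WT, with standard errors for targets of NRF2, targets of p53 and PCDHB genes that were above the detection floor in both groups. Red points were called higher and blue points lower in both fits, grey points were not, and crosses are the values with GC offsets; no NRF2 target is red and no p53 target is blue.

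The 6 libraries held 15213276 to 19983710 reads assigned to genes. At the study's false discovery rate of 0.001, 870 of the 18708 genes were higher in 8CDm cells (4.65%) and 1162 were lower (6.21%), and 8575 had an unadjusted p under 0.05. The differences followed GC content: Spearman's rho between log2 difference and GC content was -0.453 over 13415 protein-coding genes. The median log2 difference was 0.43 in the fifth of genes with the lowest GC content and -0.38 in the fifth with the highest. Library deviations from the mean correlated with GC content at -0.382, -0.309 and -0.313 in 8CDm libraries and at 0.0175, 0.611 and 0.594 in WT libraries, so WT replicate 1 stood apart from the other WT libraries. With GC offsets, a smooth curve of each library on GC content, rho was -0.0504 and 1015 genes were higher and 980 lower. The share of calls that were higher moved from 42.8% to 50.9%. In both fits 673 genes were higher and 730 lower, 629 were called only without GC offsets, 592 only with them, and 0 in opposite directions. Of these, 579 and 632 were protein-coding. The groups did not overlap for any of the 673 or 730 genes. With 3 libraries per group this is close to ensured for genes that pass the threshold, so it adds no separate support. Without WT replicate 1, 1315 genes were higher and 1185 lower, and with GC offsets 1170 and 916. Of 215 named genes called in both fits, 34 no longer passed both without WT replicate 1, and 0 changed sign. Those described here are HDAC5, HDAC9, MT-CO3, MT-CYB, ATP5D, AKR1C2, E2F1, CDC6, ZNF793, IL6, NID2, SERPINA1, SERPINF1, PCDHB11, PCDH7, TSPAN18, JUP, HES2 and DDX58. The mitochondrial share of reads was 2.06 to 2.71% in 8CDm libraries and 1.43 to 1.69% in WT libraries.

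**Figure D2:**
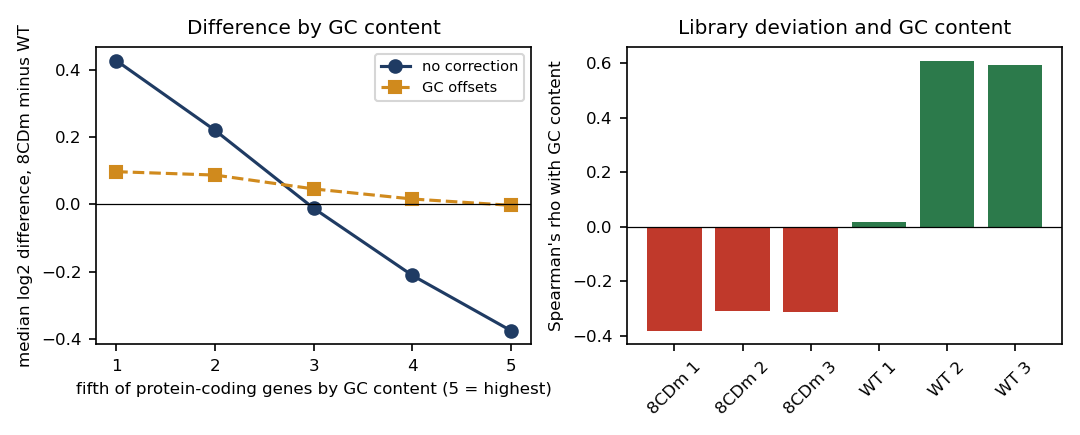
Left, median log2 difference (8CDm minus WT) in 5 equal groups of protein-coding genes by GC content, without a correction and with GC offsets; right, Spearman's rho between each library's deviation from the mean library and GC content. The medians fall from 0.43 to -0.38 without a correction and from 0.10 to -0.00 with it, and WT replicate 1 lies near 0 while the other WT libraries do not.

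The largest increases and decreases were in genes of several kinds. These genes were picked among those without overlap between the groups, so their separation follows from the choice. PAEP, a secreted lipocalin known as glycodelin, stood at 192, 191 and 193 CPM in 8CDm cells and 1.76, 2.34 and 2.06 CPM in WT cells. It was the most abundant of these genes in 8CDm cells, and no WT library came near an 8CDm library (log2 difference 6.55 ± 0.18 SE, adjusted p = 1.4e-12). CNTNAP4, a neurexin-like adhesion molecule of nerve cells, was at 7.75, 6.66 and 6.76 CPM in 8CDm cells and 0.0533, 0 and 0 CPM in WT cells. WT cells were at the detection floor, and CNTNAP4 was at least 39-fold higher in 8CDm cells. NFASC, the neurofascin gene, whose product anchors ion channels at the axon, was at 21.2, 24.5 and 21.7 CPM in 8CDm cells and 0.267, 0.316 and 0.451 CPM in WT cells (log2 difference 6.01 ± 0.27 SE, adjusted p = 5.0e-10). MMP9, a gelatinase that cleaves basement membrane collagen, was at 24, 23 and 24.8 CPM in 8CDm cells and 0.587, 0.758 and 0.322 CPM in WT cells (log2 difference 5.41 ± 0.30 SE, adjusted p = 7.5e-09). In both genes the lowest 8CDm library was far above the highest WT library.

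Further down the list, DPPA4, a chromatin protein of pluripotent cells, was at 8.88, 9.59 and 8.7 CPM in 8CDm cells and 0.32, 0.443 and 0.193 CPM in WT cells (log2 difference 4.79 ± 0.42 SE, adjusted p = 7.9e-07). PLCH1, a phospholipase C, was at 18.2, 19.1 and 21.4 CPM in 8CDm cells and 1.6, 0.948 and 1.35 CPM in WT cells (log2 difference 3.89 ± 0.26 SE, adjusted p = 4.5e-08). Neither gene had an 8CDm library near a WT library. TCN1, which encodes a vitamin B12-binding protein, was at 4.78, 4.39 and 4.35 CPM in 8CDm cells and 0.533, 0.126 and 0.193 CPM in WT cells (log2 difference 3.9 ± 0.57 SE, adjusted p = 2.0e-04). SRD5A2, a steroid 5-alpha-reductase, was at 4.56, 4.44 and 5.21 CPM in 8CDm cells and 0.427, 0 and 0.515 CPM in WT cells (log2 difference 3.87 ± 0.50 SE, adjusted p = 3.7e-05). PCDHB13 and PCDHB15, described above, complete the 10 largest increases among genes with an average log2 CPM of at least 1.

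Several genes were nearly silent in 8CDm cells. THBS2, a matricellular protein that binds cells and matrix proteases, was at 0.228, 0.271 and 0.376 CPM in 8CDm cells and 223, 178 and 191 CPM in WT cells. This was the largest difference with a value above the floor on both sides (log2 difference -9.36 ± 0.20 SE, adjusted p = 7.4e-14). PXDN, a peroxidase that crosslinks collagen IV, was at 0, 0 and 0 CPM in 8CDm cells and 21.9, 17.8 and 17.3 CPM in WT cells, which is at least 115-fold lower. ADGRL4, an adhesion receptor of the latrophilin group, was at 0.057, 0 and 0 CPM in 8CDm cells and 34.8, 18 and 20.3 CPM in WT cells, at least 148-fold lower. The WT libraries of ADGRL4 spread more widely than those of PXDN, with replicate 1 the highest, and neither gene had more than 1 count in any 8CDm library.

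ADAMTS2, which removes the N-terminal propeptide of fibrillar procollagens, was at least 86.7-fold lower, from 11.6, 15 and 16.2 CPM in WT cells. CPNE7, a calcium-dependent membrane-binding protein, was at least 102-fold lower, and EDNRA, the endothelin A receptor, at least 64.6-fold lower. CHST15, a chondroitin sulfate sulfotransferase, was at least 51.5-fold lower, and SCIN, an actin-severing protein, at least 25.9-fold lower. SH2D4A, an adaptor protein, was at 0, 0.325 and 0.215 CPM in 8CDm cells and 19.2, 17.6 and 18 CPM in WT cells (log2 difference -6.59 ± 0.32 SE, adjusted p = 1.3e-09), and its groups lay far apart. OR52D1, an olfactory receptor gene on chromosome 11, was at 0.114, 0.0542 and 0.215 CPM in 8CDm cells and 12.8, 12.9 and 12.6 CPM in WT cells (log2 difference -6.56 ± 0.29 SE, adjusted p = 4.2e-10). It overlaps HBE1 and HBG2, globin genes on the opposite strand, which were lower too (log2 difference -6.22 for HBE1, and at least 6.51-fold for HBG2), and since the strand setting of the counting is not given in the sources used here, reads of OR52D1 and its partners cannot be told apart. Of 225 named genes 67 overlap another tested gene on the opposite strand. For 15 of them such a partner passed without GC offsets in the same direction, among them THBS2, PAPPA, SMAD3, WNT5A, ALDH1A3, MGST1, ME1, TSPAN10, SMARCD3, RPL22, GAS5 and FZD4. The partner of FZD4, PRSS23, was at 406 CPM in 8CDm cells and 154 CPM in WT cells.

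**Figure D3:**
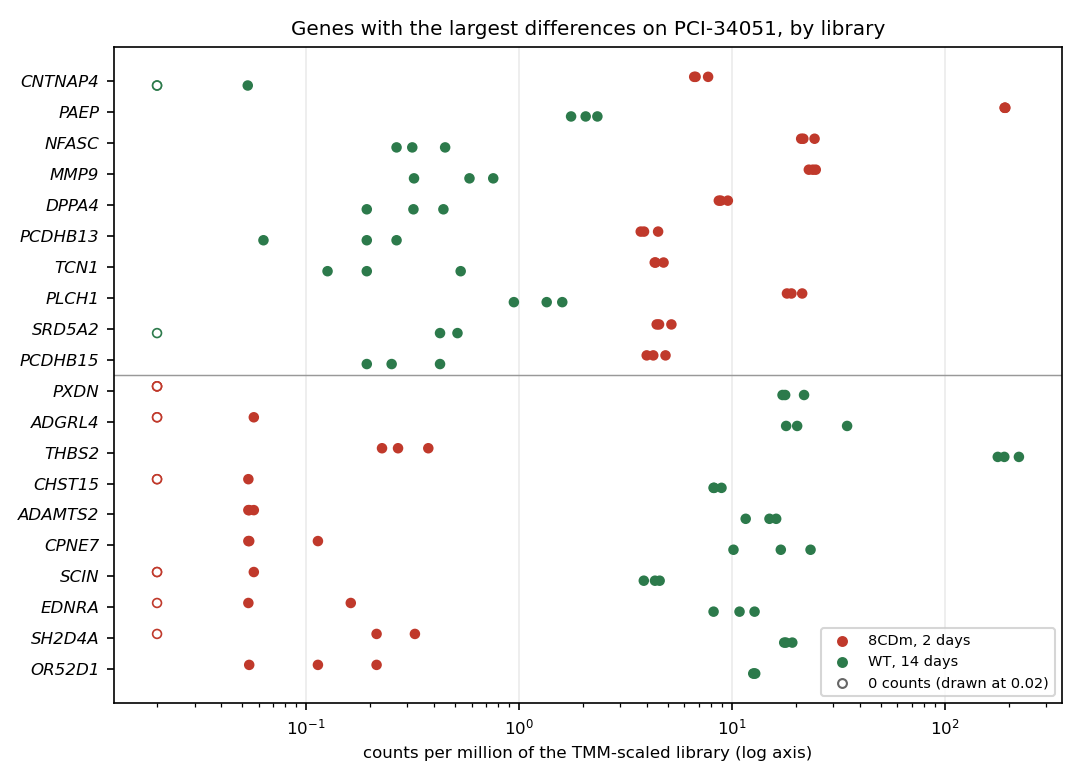
CPM on a log axis in each of the 3 8CDm libraries (red, 2 days) and the 3 WT libraries (green, 14 days) for the 10 largest increases and the 10 largest decreases named in the text; open circles mark libraries with 0 counts. The genes were picked among those without overlap between the groups, so the groups are apart by choice. Values in 8CDm cells run from PAEP near 192 CPM to PXDN at 0 CPM in all 8CDm libraries.

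The same kind of contrast, a mutant line treated for 2 days against WT cells treated for 14 days, exists for 6CD2m cells (labelled HDAC6H611A, with an inactive second catalytic domain of KDAC6) and 1 μM Tubastatin A, and shares no library with the contrast on PCI-34051. The difference between both contrasts was tested as an interaction, and 945 genes passed (5.05%). Of the 673 genes higher in 8CDm cells 164 passed, 152 of them with the same sign, and of the 730 lower genes 251 passed, 234 with the same sign. The interaction holds the same 8CDm minus WT difference by which these genes were picked. The shares that passed and the shared sign thus follow in part from the choice and add no separate support. For THBS2 the interaction was -9.57 on the log2 scale (adjusted p = 4.4e-13, edgeR), where the 6CD2m difference was 0.21. OR52D1 gave -8.09, SH2D4A -5.01, PAEP 3.56, PLCH1 3.14, NFASC 3.08 and MMP9 2.46. PAEP, NFASC and MMP9 were higher in 6CD2m cells as well, by 2.99, 2.94 and 2.95 on the log2 scale. SH2D4A was lower there too, at -1.58, while OR52D1 went the other way, at 1.53. Of the calls in both contrasts, 210 of the 673 higher genes (31.2%) were also called higher in 6CD2m cells, which is 24.6% of the 853 genes higher there. Likewise 250 of the 730 lower genes (34.2%) were called lower, 18.3% of the 1364 genes lower there. The calls in 6CD2m cells and of the interaction were made without GC offsets only, while the 673 and 730 genes passed with and without them. These shares thus set unlike rules side by side. LAMA3, CXCL8 and CD274, described below, are among the genes whose interaction did not pass (adjusted p = 0.51, 0.12 and 0.95, edgeR). So are PCDHB13 and PCDHB15 (adjusted p = 0.20 and 0.046, edgeR), which were higher in 6CD2m cells by 2.78 and 2.14 on the log2 scale. That difference passed for PCDHB15 (adjusted p = 5.4e-04, edgeR) but not for PCDHB13 (adjusted p = 0.0013, edgeR). Among the 43 protocadherins tested the interaction passed for 3.

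A pair of stretches of the genome held many of the lower genes, and both were defined after seeing the data. When protein-coding genes were taken in 223 blocks of about 60 neighbours, 6 blocks had a median log2 difference beyond 0.5 with GC offsets, 5 side by side on chromosome 6 and 1 at the end of chromosome 7, all of them negative. The medians of the other blocks ran from -0.217 to 0.44. The chromosome 6 stretch runs from MTO1 to PDCD2 (chr6:73461578-170584692, GRCh38) and holds 300 protein-coding genes tested. Of these 277 had a difference below 0 with GC offsets, 93 were lower (31%) and 6 higher, and the median was -0.61, or -0.82 with GC offsets. The chromosome 7 stretch runs from TCAF1 to WDR60 (chr7:143851375-158956747) and holds 59 genes, of which 27 were lower (45.8%) and 0 higher, with a median of -0.99, or -0.90 with GC offsets. Elsewhere 512 of 13056 protein-coding genes were lower (3.92%). Since the stretches were chosen on these differences, the counts are a description.

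The libraries outside the comparison bear on the same stretches. Relative to the mean of the 12 libraries that are not 8CDm, which lie around 0 by this construction, and to genes elsewhere, the chromosome 6 stretch was at -0.733, -0.766 and -0.727 on the log2 scale in 8CDm libraries, between -0.227 and 0.0116 in the WT libraries on PCI-34051, and between -0.272 and 0.196 in the 9 other libraries. The chromosome 7 stretch was at -1.06, -0.983 and -1.06 in 8CDm libraries and between -0.265 and 0.208 in all others. In the 6CD2m contrast the medians of the stretches were 0.08 and 0.33. THBS2 is the extreme of the chromosome 6 stretch, but 82 of its 93 lower genes were lower by less than 4-fold. Typical of them were LAMA4, a laminin chain, at 113, 124 and 129.9 CPM in 8CDm cells and 356, 230.4 and 249 CPM in WT cells (log2 difference -1.18 ± 0.17 SE, adjusted p = 1.1e-04), and ARID1B, a subunit of the SWI/SNF remodelling complex, at 81.9, 80.0 and 83.8 CPM in 8CDm cells and 160.5, 141 and 159 CPM in WT cells (log2 difference -0.91 ± 0.08 SE, adjusted p = 7.7e-07). On chromosome 7, SMARCD3, a further SWI/SNF subunit, was at 6.26, 5.69 and 5.42 CPM in 8CDm cells and 18.3, 27.4 and 21.4 CPM in WT cells (log2 difference -1.95 ± 0.19 SE, adjusted p = 2.0e-06). INSIG1, which retains the sterol sensor in the endoplasmic reticulum, was at 11.2, 9.91 and 12.2 CPM in 8CDm cells and 40.9, 33 and 31.6 CPM in WT cells (log2 difference -1.66 ± 0.14 SE, adjusted p = 6.1e-07). KMT2C, a histone H3 lysine 4 methyltransferase, was lower too (log2 difference -0.66 ± 0.09 SE, adjusted p = 4.1e-05), and so were 7 of the 12 zinc finger genes called lower anywhere in the genome, ZNF212, ZNF282, ZNF398, ZNF746, ZNF767P, ZNF775 and ZNF777. DNA copy number was not measured here, and its part in these differences was not tested.

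**Figure D4:**
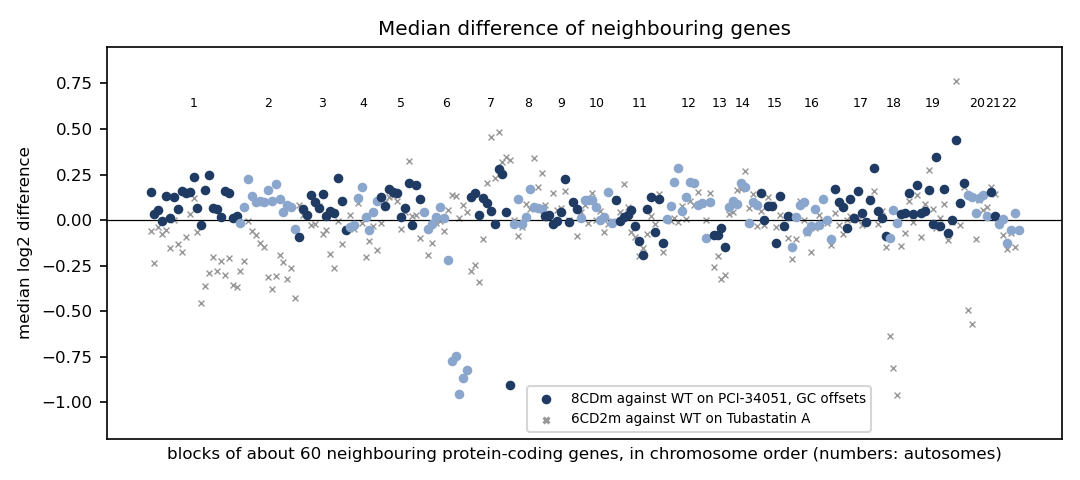
Median log2 difference in blocks of about 60 neighbouring protein-coding genes along the autosomes, 8CDm against WT on PCI-34051 with GC offsets (dots, alternating shades by chromosome) and 6CD2m against WT on Tubastatin A without offsets (grey crosses). On PCI-34051 only 5 blocks of chromosome 6 and 1 of chromosome 7 lie beyond 0.5, at medians of -0.748 to -0.955 and at -0.90, while the others lie between -0.217 and 0.44.

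Of 22 adhesion molecules of the immunoglobulin group tested, 6 were higher and 0 lower (median 0.20, or 0.29 with GC offsets, beside -0.04 and 0.01 over all genes). CNTN1, a contactin that binds neurofascin, was at 8.49, 8.78 and 9.29 CPM in 8CDm cells and 2.35, 0.443 and 0.515 CPM in WT cells, with WT replicate 1 above the other WT libraries and below every 8CDm library (log2 difference 2.95 ± 0.47 SE, adjusted p = 2.2e-04). NRCAM, like neurofascin a member of the L1 group, was at 17.9, 20.5 and 20.2 CPM in 8CDm cells and 6.56, 3.54 and 4.83 CPM in WT cells (log2 difference 1.96 ± 0.24 SE, adjusted p = 2.1e-05). MCAM, SDK1 and F11R were the other members called higher. Cadherins were divided, with 3 of 22 higher and 3 lower (median -0.45). CDH5, the cadherin of endothelial junctions, was read at 2.62, 2.11 and 2.85 CPM in 8CDm cells and at 0 in all WT libraries, at least 14-fold higher. CDH4 rose by a log2 difference of 1.71 ± 0.11 and FAT3 by 1.5 ± 0.19, while CDH7, the giant cadherin FAT4 and CDH8 fell. CDH7 changed by -4.79 on the log2 scale, and CDH8 was at least 5.58-fold lower. For DSP, the desmosomal plaque protein desmoplakin, values were 97, 101 and 103 CPM in 8CDm cells and 25.3, 17.6 and 20.5 CPM in WT cells (log2 difference 2.24 ± 0.13 SE, adjusted p = 1.5e-08), and for its partner plakoglobin, JUP, they were 1.42, 0.975 and 1.18 CPM in 8CDm cells and 3.95, 3.92 and 4.38 CPM in WT cells (log2 difference -1.77 ± 0.20 SE, adjusted p = 9.3e-06). With WT replicate 1 left out, JUP had an adjusted p of 0.0015 (edgeR) in the fit with GC offsets.

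Integrins and tetraspanins, which link matrix and membrane, had fewer calls. ITGA11, the alpha chain of a collagen-binding integrin, was at 18.1, 16.6 and 16.5 CPM in 8CDm cells and 171, 158 and 160.4 CPM in WT cells (log2 difference -3.25 ± 0.10 SE, adjusted p = 9.3e-12), and its groups were far apart. ITGA10, from the same collagen-binding group, was at 152, 152 and 152 CPM in 8CDm cells and 74.9, 90.5 and 82.2 CPM in WT cells (log2 difference 0.88 ± 0.12 SE, adjusted p = 4.5e-05). These were the only 2 of 22 integrins called, although 4 were higher and 1 lower with WT replicate 1 left out. Among 22 tetraspanins 0 were higher and 3 lower. CD9 was at 0.114, 0 and 0 CPM in 8CDm cells and 4.85, 3.1 and 3.54 CPM in WT cells, at least 23.3-fold lower, and TSPAN18 and TSPAN10 changed by -2.02 and -1.46 on the log2 scale.

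Matrix genes moved in both directions within the same families. Over all genes tested 3.6% were higher and 3.9% lower, so counts of 1 or 2 genes do not set a family apart. Of 28 matrix glycoproteins 4 were higher and 3 lower (median -0.08, or 0.19 with GC offsets). While THBS2 fell, its relative THBS1, a matrix protein that activates TGF-beta, was at 1361, 1473 and 1480 CPM in 8CDm cells and 656, 402 and 424 CPM in WT cells (log2 difference 1.54 ± 0.18 SE, adjusted p = 1.5e-05). Tenascin C (TNC) was at 322, 332 and 357 CPM in 8CDm cells and 178, 141 and 167 CPM in WT cells (log2 difference 1.05 ± 0.13 SE, adjusted p = 2.4e-05). NID1, which joins laminin to collagen IV, rose (log2 difference 1.02 ± 0.16 SE, adjusted p = 1.9e-04), whereas NID2, its close relative, fell (log2 difference -1.2 ± 0.19 SE, adjusted p = 1.9e-04), with an adjusted p of 0.0038 in the fit with GC offsets when WT replicate 1 was left out. FBLN1, which encodes fibulin 1, was at least 14.1-fold lower. Of 26 collagens 1 was higher and 2 lower (2 and 2 with WT replicate 1 left out): COL8A1 at a log2 difference of 1.6 ± 0.24, COL22A1 at -3.9 ± 0.32 and COL10A1 at -2.4 ± 0.22. COL10A1 lies in the chromosome 6 stretch. The laminin chain LAMA3 was at 1.65, 1.14 and 1.99 CPM in 8CDm cells and 32.9, 30.2 and 31.9 CPM in WT cells (log2 difference -4.31 ± 0.16 SE, adjusted p = 9.8e-11). CSPG4, a cell surface proteoglycan, was higher (log2 difference 1.43 ± 0.11 SE, adjusted p = 2.4e-07), and versican (VCAN), a secreted one, lower (log2 difference -1.48 ± 0.22 SE, adjusted p = 1.4e-04).

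Proteases showed the same division. MMP1, the interstitial collagenase, was at 6.15, 6.66 and 7.89 CPM in 8CDm cells and 81.4, 53 and 67.5 CPM in WT cells, the opposite direction to MMP9 (log2 difference -3.28 ± 0.23 SE, adjusted p = 6.5e-08). These were the 2 of 14 metalloproteinases and inhibitors called. PLAT, the tissue plasminogen activator, was at 24.6, 26 and 26.4 CPM in 8CDm cells and 209.7, 174 and 146 CPM in WT cells, and no 8CDm library came near a WT library (log2 difference -2.78 ± 0.15 SE, adjusted p = 4.8e-09). Of the 20 genes of plasminogen activators and serpins 4 were higher and 3 lower. SERPINB7 was at 42.5, 59.2 and 53.3 CPM in 8CDm cells and 5.55, 3.86 and 3.48 CPM in WT cells (log2 difference 3.58 ± 0.31 SE, adjusted p = 6.8e-07). SERPINB2, a plasminogen activator inhibitor, was at 0.228, 0.488 and 0.644 CPM in 8CDm cells and 7.47, 5.69 and 7.47 CPM in WT cells (log2 difference -3.89 ± 0.34 SE, adjusted p = 2.4e-06). SERPINF1 and SERPINE2 rose, and SERPINA1 was at least 7.44-fold higher and SERPINE3 at least 7.02-fold lower. Of 29 ADAM and ADAMTS proteases 3 were higher and 4 lower. ADAMTS12 (1.87 ± 0.34), ADAMTS7 (1.29 ± 0.18) and ADAM17 (0.94 ± 0.16) rose on the log2 scale, the last of them being the sheddase of TNF and EGF-family ligands. ADAMTS18 (-3.52 ± 0.27) and ADAM11 (-1.82 ± 0.20) fell with ADAMTS2 and ADAMTS16.

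Of 11 cytokines and chemokines tested 6 were lower and 1 higher (median -0.86, or -0.60 with GC offsets). IL1B, a proinflammatory cytokine, was at 62.4, 64.1 and 62.8 CPM in 8CDm cells and 362, 235 and 285 CPM in WT cells (log2 difference -2.22 ± 0.16 SE, adjusted p = 9.1e-08). CXCL8, a neutrophil chemokine, was at 0.342, 0.379 and 0.269 CPM in 8CDm cells and 6.35, 7.71 and 5.41 CPM in WT cells (log2 difference -4.27 ± 0.24 SE, adjusted p = 7.7e-09). IL6 was at 0.513, 0.108 and 0.322 CPM in 8CDm cells and 2.29, 1.96 and 1.16 CPM in WT cells, under 3 CPM throughout (log2 difference -2.51 ± 0.48 SE, adjusted p = 9.8e-04). IL6 had an adjusted p of 0.0028 (edgeR) with WT replicate 1 left out. CSF1, LIF and CXCL3 were the other members called lower. IL24 was the exception, at 41, 42.6 and 46.1 CPM in 8CDm cells and 23.6, 19.1 and 23.6 CPM in WT cells (log2 difference 0.97 ± 0.17 SE, adjusted p = 4.8e-04). The IL1B difference was smaller than that in 6CD2m cells on Tubastatin A (interaction 2.42, adjusted p = 2.1e-06, edgeR), while for IL6, at a log2 difference of 1.41 in 6CD2m cells, the interaction was -3.92 (adjusted p = 3.3e-04, edgeR).

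In the IGF system, ligands, receptors and binding proteins of the insulin-like growth factors, 6 of 15 were lower and 1 higher (median -0.75, or -0.55 with GC offsets). With WT replicate 1 left out, 4 were lower and 1 higher. PAPPA, the protease that frees IGF from its binding proteins, was at 173, 173 and 180.2 CPM in 8CDm cells and 601, 443 and 496 CPM in WT cells (log2 difference -1.55 ± 0.12 SE, adjusted p = 2.1e-07). IGFBP7 was at 31.1, 38.9 and 39.1 CPM in 8CDm cells and 112, 80.7 and 85.3 CPM in WT cells (log2 difference -1.35 ± 0.15 SE, adjusted p = 6.0e-06), and IGFBP3 was at least 5.46-fold lower, from under 1 CPM. IGFBP6, the adaptor IRS1 and the clearance receptor IGF2R, which lies in the chromosome 6 stretch, were lower as well. The signalling receptor IGF1R was at 232, 238 and 249 CPM in 8CDm cells and 159, 138 and 145 CPM in WT cells (log2 difference 0.70 ± 0.08 SE, adjusted p = 8.4e-06). VEGFA, the main angiogenic growth factor, was at 381, 383 and 393 CPM in 8CDm cells and 896, 1187 and 1124 CPM in WT cells (log2 difference -1.47 ± 0.15 SE, adjusted p = 4.3e-06). EPAS1, the hypoxia factor HIF-2 alpha, was at 129, 130.1 and 134 CPM in 8CDm cells and 402, 304 and 384 CPM in WT cells (log2 difference -1.47 ± 0.11 SE, adjusted p = 1.2e-07), but among 18 hypoxia targets outside glycolysis 2 were lower and 1 higher (2 and 2 with WT replicate 1 left out), and NDRG1, also a target, was at 816, 819 and 823 CPM in 8CDm cells and 449, 341 and 374 CPM in WT cells (log2 difference 1.08 ± 0.10 SE, adjusted p = 1.8e-06). PDGFB was near 0 in WT cells and at least 21-fold higher in 8CDm cells, and FGF1 was at 14.8, 16.1 and 16.8 CPM in 8CDm cells and 2.45, 2.34 and 1.87 CPM in WT cells (log2 difference 2.83 ± 0.23 SE, adjusted p = 3.2e-07).

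Genes of the Wnt and TGF-beta pathways were divided as well. For Wnt, 3 of 39 genes were higher and 6 lower (median -0.00). Both ligands called were lower: WNT5A at 29.2, 33.6 and 34.4 CPM in 8CDm cells and 144, 106 and 112 CPM in WT cells (log2 difference -1.9 ± 0.15 SE, adjusted p = 3.3e-07) and WNT7B by a log2 difference of -1.58 ± 0.15. Among the Frizzled receptors FZD3 and FZD4 were higher and FZD1, FZD7 and FZD8 lower. FZD3 was at 21.8, 19.5 and 20.2 CPM in 8CDm cells and 4.8, 2.59 and 2.51 CPM in WT cells (log2 difference 2.61 ± 0.22 SE, adjusted p = 4.1e-07). In the TGF-beta and BMP pathway 2 of 35 were higher and 6 lower (median 0.09, or -0.06 with GC offsets). SMAD3, the receptor-activated transducer of TGF-beta, was at 364, 351 and 360.2 CPM in 8CDm cells and 909, 885 and 905 CPM in WT cells (log2 difference -1.33 ± 0.08 SE, adjusted p = 7.7e-09). The inhibitory SMAD6, the co-receptor TGFBR3 and the BMP targets ID1 and ID3 fell too, while the target TGFBI and the receptor BMPR2 rose. Of 39 regulators of G proteins 0 were higher and 5 lower (4 and 4 with WT replicate 1 left out), and GNG2, a gamma subunit, was at 1.42, 1.57 and 1.02 CPM in 8CDm cells and 19.1, 8.72 and 11.4 CPM in WT cells (log2 difference -3.29 ± 0.34 SE, adjusted p = 3.6e-06).

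**Figure D5:**
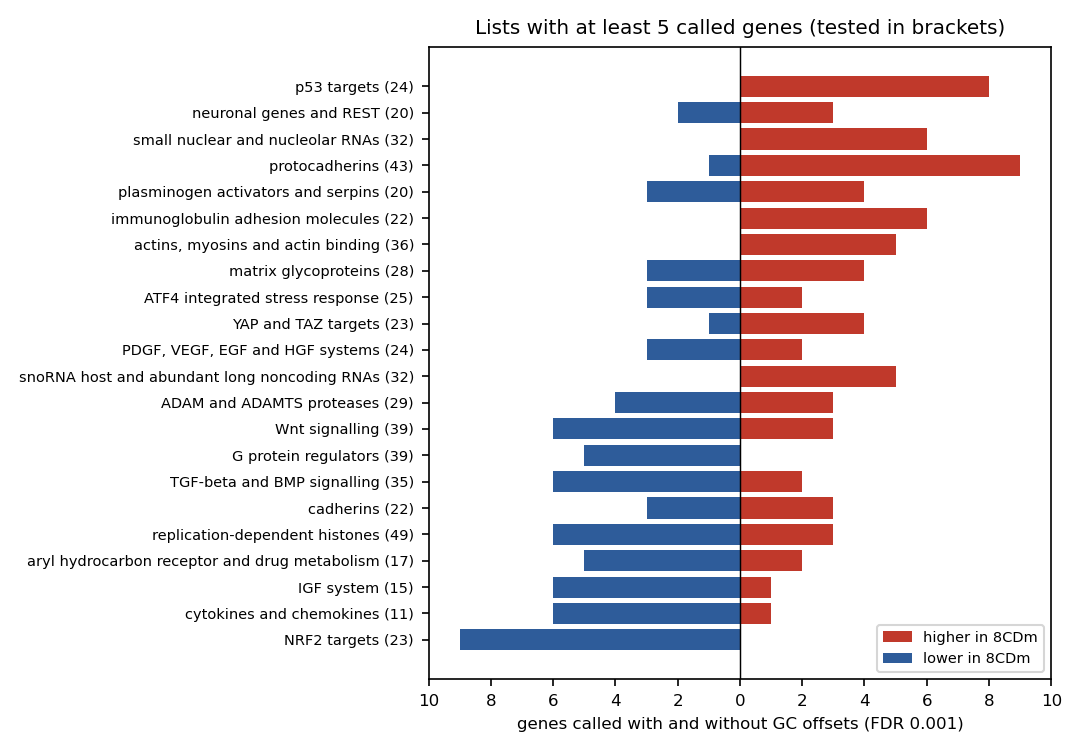
Numbers of genes called higher (red, to the right) and lower (blue, to the left) in 8CDm cells with and without GC offsets, for lists of at most 100 tested genes that had at least 5 such genes, ordered by the median log2 difference with GC offsets. NRF2 targets lie at the bottom with 9 lower and 0 higher, and p53 targets at the top with 8 higher and 0 lower.

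Of 23 targets of NRF2, the transcription factor of the oxidative and electrophile stress response, 9 were lower and 0 higher, with a median of -0.87, or -0.83 with GC offsets. HMOX1, heme oxygenase 1, was at 8.31, 6.18 and 7.3 CPM in 8CDm cells and 29, 22 and 29.8 CPM in WT cells (log2 difference -1.89 ± 0.16 SE, adjusted p = 4.4e-07). NQO1, a quinone reductase, was at 33.5, 35.6 and 38.2 CPM in 8CDm cells and 149, 87.1 and 113 CPM in WT cells (log2 difference -1.7 ± 0.19 SE, adjusted p = 8.4e-06). AKR1C1, an aldo-keto reductase, was at 0.342, 0.163 and 0.644 CPM in 8CDm cells and 4.32, 3.29 and 3.09 CPM in WT cells (log2 difference -3.19 ± 0.46 SE, adjusted p = 9.1e-05). WT replicate 1 was the highest library for NQO1 and AKR1C1. The iron storage chains FTL and FTH1 fell by 1.82 and 1.23 on the log2 scale, and TALDO1, ABCC3 and ME1, which lies in the chromosome 6 stretch, were lower too. AKR1C2 was at least 5.46-fold lower, with reads that may be shared among near-identical AKR1C genes, and FTL and FTH1 have many pseudogene copies. GCLC, the catalytic subunit of glutathione synthesis, had a log2 difference of -0.01 ± 0.13, and TXNRD1, thioredoxin reductase, one of -0.78 ± 0.17 that passed only with GC offsets. With WT replicate 1 left out, 7 were lower and 0 higher. The interaction with the 6CD2m contrast passed for 2 of the 23.

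Genes of foreign compound metabolism overlapped with these. Of 17 in the list of the aryl hydrocarbon receptor and drug metabolism 5 were lower and 2 higher (median -0.47). MGST1, a membrane glutathione transferase, was at 0.797, 1.19 and 0.913 CPM in 8CDm cells and 44, 24.8 and 27.9 CPM in WT cells (log2 difference -5.05 ± 0.29 SE, adjusted p = 8.9e-09). LMO3, on the opposite strand of the same locus, was lower as well, and their reads cannot be told apart. ALDH1A3, a retinaldehyde dehydrogenase, was at 4.78, 4.28 and 4.72 CPM in 8CDm cells and 73.3, 53.2 and 67.6 CPM in WT cells (log2 difference -3.81 ± 0.18 SE, adjusted p = 1.3e-09). TIPARP, a target of the receptor, was at 65.6, 59.1 and 65.5 CPM in 8CDm cells and 42.2, 28.2 and 28.3 CPM in WT cells (log2 difference 0.94 ± 0.15 SE, adjusted p = 2.3e-04), CYP2S1 also rose (log2 difference 1.55 ± 0.22 SE, adjusted p = 7.3e-05), and AHRR, the repressor that the receptor induces, fell.

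Metallothioneins bind zinc and copper and are switched on by metals through the factor MTF1. MT2A was at 44.9, 46.6 and 39.1 CPM in 8CDm cells and 155, 172 and 188 CPM in WT cells (log2 difference -1.98 ± 0.14 SE, adjusted p = 1.1e-07). MT1E was at 29.8, 32.6 and 29.7 CPM in 8CDm cells and 67.3, 66.2 and 65.6 CPM in WT cells (log2 difference -1.11 ± 0.08 SE, adjusted p = 1.6e-07), and the other 12 genes of the list of metallothioneins and zinc transporters did not pass both fits, although 1 was higher with WT replicate 1 left out. The core of the metal response element was searched as TGCACNC and TGCGCNC on both strands in the 250 bases before the start of each gene. MT2A held 7 and MT1X, which was not called, 4. Of 27305 promoters 24.7% held 1 or more, 1.56% held 3 or more and 0.121% held 5 or more. The promoters of MT2A (chr16:56608334-56608583, plus strand) and MT1X (chr16:56682220-56682469, plus strand) are shown from RefSeq (GRCh38.p14) with cores on either strand in capitals, to set the gene that fell beside one that did not pass.
MT2A: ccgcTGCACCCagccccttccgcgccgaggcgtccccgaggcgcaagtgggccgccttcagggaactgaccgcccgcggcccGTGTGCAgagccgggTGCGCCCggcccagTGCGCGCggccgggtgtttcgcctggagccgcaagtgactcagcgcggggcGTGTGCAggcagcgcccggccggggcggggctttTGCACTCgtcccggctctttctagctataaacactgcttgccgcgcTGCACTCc
MT1X: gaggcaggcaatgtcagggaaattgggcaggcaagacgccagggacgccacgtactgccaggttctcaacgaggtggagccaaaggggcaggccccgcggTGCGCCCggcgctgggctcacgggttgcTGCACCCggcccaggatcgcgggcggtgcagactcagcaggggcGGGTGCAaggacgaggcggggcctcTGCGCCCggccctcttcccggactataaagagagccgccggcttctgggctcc
Short reads of metallothionein genes may be shared among copies.

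Of 24 targets of p53, the factor that halts the cycle or triggers death after DNA damage, 8 rose and 0 fell, with a median of 0.27, or 0.59 with GC offsets. MDM2, the ligase that degrades p53 and is itself a p53 target, was at 682, 647 and 647 CPM in 8CDm cells and 332, 265 and 292 CPM in WT cells (log2 difference 1.15 ± 0.09 SE, adjusted p = 2.4e-07). SPATA18, a mitochondrial quality control gene, was at 18.6, 19.3 and 19.2 CPM in 8CDm cells and 3.68, 2.72 and 2.77 CPM in WT cells (log2 difference 2.63 ± 0.28 SE, adjusted p = 4.5e-06). FAS, the death receptor, was at 29.2, 28.8 and 29.6 CPM in 8CDm cells and 15, 7.84 and 11.6 CPM in WT cells (log2 difference 1.34 ± 0.20 SE, adjusted p = 1.2e-04). RRM2B, a ribonucleotide reductase subunit for DNA repair, was at 122, 126 and 124 CPM in 8CDm cells and 64.4, 42.7 and 44 CPM in WT cells (log2 difference 1.3 ± 0.20 SE, adjusted p = 1.4e-04). TP53INP1, ZMAT3, DDB2 and GADD45A were the other members called higher. CDKN1A, the cycle inhibitor p21, had a log2 difference of 0.08 ± 0.11 (adjusted p = 0.59, edgeR), and BAX, a mediator of cell death, one of -0.11 ± 0.10 (adjusted p = 0.41, edgeR). Without WT replicate 1, 10 of the 24 were higher and 0 lower. SPATA18 was the 1 target whose interaction passed (5.1, adjusted p = 1.3e-06, edgeR).

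Of the deacetylases themselves, HDAC8 lies on X and its mutation is a single amino acid change, so its level does not check the label. It was read at 17.97 ± 1.54 CPM (SD, n = 3) in 8CDm cells and 15.52 ± 0.789 CPM (SD, n = 3) in WT cells (log2 difference 0.21, adjusted p = 0.25, edgeR). Of the 9 zinc-dependent deacetylases on autosomes 2 were higher. HDAC9 was at 93.7, 89.5 and 92 CPM in 8CDm cells and 60.4, 50.4 and 54.7 CPM in WT cells (log2 difference 0.73 ± 0.12 SE, adjusted p = 2.1e-04) and HDAC5 at 88.4, 92.2 and 87 CPM in 8CDm cells and 58.1, 63.2 and 62.2 CPM in WT cells (log2 difference 0.54 ± 0.09 SE, adjusted p = 4.5e-04), both class IIa enzymes that bind MEF2 factors. When WT replicate 1 was left out, neither passed both fits: the adjusted p of HDAC5 was 0.0014 without GC offsets and that of HDAC9 0.0022 with them. HDAC1, HDAC2 and HDAC3, the class I relatives of KDAC8, had log2 differences of -0.01 ± 0.13, -0.09 ± 0.20 and -0.21 ± 0.10. HDAC4 (-0.59 ± 0.15), HDAC7 (-0.35 ± 0.15), HDAC10 (-0.78 ± 0.29) and HDAC11 (-0.53 ± 0.23) did not pass either. Among 6 sirtuins and 14 lysine acetyltransferases 0 were higher or lower in both fits, and 1 sirtuin was lower with WT replicate 1 left out.

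SMC3, the substrate of KDAC8 in the cohesin ring, was at 89.4, 88.4 and 93.2 CPM in 8CDm cells and 61.4, 39.2 and 45.2 CPM in WT cells. All 8CDm libraries lay above all WT libraries, but the difference did not pass without GC offsets (log2 difference 0.89 ± 0.18 SE, adjusted p = 0.0015) and passed with them (adjusted p = 3.0e-04, edgeR). Without WT replicate 1 it passed both fits (log2 difference 1.10, adjusted p = 2.4e-04, edgeR). Of 14 cohesin subunits and regulators 0 were higher and 1 lower in both fits. The gene that was lower was ESPL1, separase, which cuts the ring at anaphase, at 29.7, 29.2 and 34.1 CPM in 8CDm cells and 57.8, 75.7 and 63.7 CPM in WT cells (log2 difference -1.08 ± 0.15 SE, adjusted p = 8.6e-05).

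The median of 78 cytosolic ribosomal proteins was 0.37 in both fits, and 3 were higher (3.85%) and 0 lower. Over all genes tested 3.6% were higher and 3.9% lower, so the share of higher genes was near that of all genes. RPL11, which also binds MDM2, was at 614, 626 and 566 CPM in 8CDm cells and 369.6, 247 and 249 CPM in WT cells (log2 difference 1.06 ± 0.15 SE, adjusted p = 8.9e-05), and RPL37 and RPL22 rose by 0.81 and 0.79 on the log2 scale. Without WT replicate 1, 10 of the 78 were higher. Small nuclear and nucleolar RNAs, which modify and process other RNAs, were higher in 6 of 32 and lower in 0 (median 0.15, or 0.39 with GC offsets). SNORD3A, the U3 RNA that takes part in cutting the rRNA precursor, was at 80.5, 71.8 and 67.4 CPM in 8CDm cells and 23.8, 18.6 and 16.6 CPM in WT cells (log2 difference 1.89 ± 0.13 SE, adjusted p = 8.2e-08). Of 32 snoRNA hosts and abundant noncoding RNAs 5 were higher and 0 lower (4 and 1 with WT replicate 1 left out), GAS5 among them (log2 difference 0.82 ± 0.13 SE, adjusted p = 1.7e-04). Small structural RNAs took 5.02 to 5.81% of reads in 8CDm libraries and 5.63 to 9.07% in WT libraries, and the part of this in their differences was not tested.

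Of 13 mRNAs of the mitochondrial genome 2 were higher (15.4%) and 0 lower (median 0.72, or 0.56 with GC offsets). Over all genes tested 3.6% were higher and 3.9% lower. MT-CO3, a subunit of cytochrome oxidase, was at 2251, 1722 and 1675 CPM in 8CDm cells and 997, 1079 and 916 CPM in WT cells (log2 difference 0.92 ± 0.16 SE, adjusted p = 5.8e-04), and MT-CYB, a subunit of complex III, at 2582, 2094 and 2021 CPM in 8CDm cells and 1280, 1289 and 1058 CPM in WT cells (log2 difference 0.88 ± 0.16 SE, adjusted p = 5.4e-04). None passed both fits, 0 of 13, without WT replicate 1. Ribosomal RNA was depleted from the libraries, and the values of the mitochondrial rRNAs spread widely among 8CDm libraries: MT-RNR1 was at 61.2, 3.9 and 17.7 CPM in 8CDm cells and 2.19, 2.46 and 1.8 CPM in WT cells and MT-RNR2 at 60.8, 3.47 and 17.5 CPM in 8CDm cells and 4.11, 5.44 and 5.02 CPM in WT cells. Neither was called. Among nuclear genes, NDUFS8 of complex I (log2 difference -1.15 ± 0.09 SE, adjusted p = 1.7e-07) and ATP5D of the ATP synthase (log2 difference -1.07 ± 0.09 SE, adjusted p = 3.2e-07) were lower, with 33 of 35 complex I subunits and 15 of 17 ATP synthase subunits not called. With WT replicate 1 left out, 1 complex I and 0 ATP synthase genes were lower.

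Of 49 replication-dependent histone genes 3 were higher and 6 lower, and without the GC check 17 were lower. HIST1H3D was at 4.16, 4.23 and 4.35 CPM in 8CDm cells and 22.4, 18.3 and 19.3 CPM in WT cells (log2 difference -2.24 ± 0.23 SE, adjusted p = 4.1e-06), HIST1H2AJ at 18.9, 19 and 19.6 CPM in 8CDm cells and 75.8, 62.6 and 63.8 CPM in WT cells (log2 difference -1.82 ± 0.14 SE, adjusted p = 1.6e-07) and HIST2H4B at 57, 66.4 and 54.8 CPM in 8CDm cells and 19.5, 8.98 and 8.18 CPM in WT cells (log2 difference 2.27 ± 0.31 SE, adjusted p = 5.4e-05). Histone messages of this kind lack a poly(A) tail, and near-identical copies share reads, so single members are uncertain. Histone calls were mostly lower and zinc finger calls mostly higher. Zinc finger genes, many of them repressors of transposable elements through a KRAB domain, were higher in 55 of 451 and lower in 12 (median 0.34, 0.25 with GC offsets, and 0.30 with genes at the floor set to their bound). ZNF253 was at 3.42, 3.09 and 2.09 CPM in 8CDm cells and 0.0533, 0.0632 and 0 CPM in WT cells, at least 15.9-fold higher, and ZNF793 and ZNF44 were at 0 in all WT libraries and at least 4.68-fold and 4.13-fold higher. Reads of close copies may be shared among zinc finger genes as well.

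Replication genes were lower where they differed. Of 35 in the list 4 were lower and 0 higher (median -0.34, or -0.26 with GC offsets). E2F1, which activates genes of S phase, was at 16.2, 18.5 and 18.1 CPM in 8CDm cells and 31.6, 35.1 and 34.1 CPM in WT cells (log2 difference -0.93 ± 0.11 SE, adjusted p = 2.2e-05), CDC6, which licenses origins, at 16.6, 21.8 and 20.4 CPM in 8CDm cells and 39.1, 31.5 and 28.5 CPM in WT cells (log2 difference -0.75 ± 0.14 SE, adjusted p = 1.0e-03) and GINS4 fell as well (log2 difference -0.78 ± 0.12 SE, adjusted p = 1.4e-04). RFC5 was the fourth. Without WT replicate 1 only 1 of the 35 was lower. Among 30 genes of mitosis 0 were called, with a median of 0.04. The lists of 24 cytosolic chaperones, 36 proteasome subunits, 18 tubulins and 29 genes of lysosome and autophagy likewise had 0 genes higher or lower in both fits, with medians between -0.32 and 0.11. With WT replicate 1 left out, 2 chaperones and 1 gene of lysosome and autophagy were higher.

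Of 25 ATF4 targets 2 were higher and 3 lower. ASNS, asparagine synthetase, was at 412, 430.2 and 445 CPM in 8CDm cells and 248, 152 and 174 CPM in WT cells (log2 difference 1.16 ± 0.20 SE, adjusted p = 3.6e-04), and ALDH1L2 rose by 1.24 on the log2 scale. CEBPB fell by 1.43 and STC2 by 1.06, and CTH was lower too. Among 36 actins, myosins and actin-binding proteins 5 were higher and 0 lower (8 and 0 with WT replicate 1 left out), with TAGLN, transgelin, at 37.5, 40.9 and 37.9 CPM in 8CDm cells and 12.2, 16.4 and 11.3 CPM in WT cells (log2 difference 1.54 ± 0.15 SE, adjusted p = 2.6e-06). ANKRD1, a target of YAP, was at 135, 148 and 140.1 CPM in 8CDm cells and 51.7, 35 and 35.7 CPM in WT cells (log2 difference 1.79 ± 0.18 SE, adjusted p = 3.2e-06), and 4 of 23 targets of YAP and TAZ were higher and 1 lower. CD274, which encodes the immune checkpoint ligand PD-L1, was at 56, 54.9 and 55.8 CPM in 8CDm cells and 12.8, 11.6 and 13.5 CPM in WT cells (log2 difference 2.14 ± 0.13 SE, adjusted p = 1.5e-08), and among 20 genes of antigen presentation it was the 1 called higher, with NLRC5, the activator of class I genes, the 1 called lower (3 and 2 with WT replicate 1 left out).

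The label of the cells was checked against marker genes. The summed level of 10 mesenchymal markers was 7257 to 7763 CPM in 8CDm cells and 6008 to 8321 CPM in WT cells, most of it from VIM and FN1, while COL3A1 was at 0 in all libraries. The sum of 7 epithelial markers was 8.25 to 9.49 and 4.69 to 9.66 CPM, with 4 of the 7 at or under the floor in all 6 libraries. The sum of 6 blood markers was 0 to 3.41 and 0.189 to 0.257 CPM. The sum of 5 endothelial markers was 4.61 to 5.47 CPM in 8CDm cells and 0.708 to 2.29 CPM in WT cells, and CDH5 is one of them. Markers of melanocytes and nerve, 5 genes, summed to 9.44 to 11.6 and 15.5 to 18.9 CPM. Their part in the differences of single genes was not tested.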

How the data were processed

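RNA depleted of ribosomal RNA was sequenced from 5 groups of 3 HT1080 libraries. The authors deposited expected counts per gene, the estimated read counts of RSEM, for 60675 genes. The submitters' processing notes name Trimmomatic 0.39, Bowtie2 2.4.5, RSEM 1.3.3, DESeq2 1.38.2 and GRCh38 without further settings, and whether strand was used in counting is not given in the sources used here. Values above 0 included 21.8% with decimals, which were rounded to whole numbers. Counting error falls with depth, and genes at or under 3 counts in every library of a group (0.165 CPM in 8CDm cells, 0.181 CPM in WT cells) are given only as bounds.

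The rounded counts of all 15 libraries were scaled with TMM and fitted with edgeR 4.0.16 (quasi-likelihood, 5 group means, 10 residual degrees of freedom) in R 4.3.3, after edgeR's filter on low counts, which left 19535 genes. P-values were adjusted over all of these with the Benjamini-Hochberg method, at a false discovery rate of 0.001. They rest on the spread between replicates, estimated together over all 5 groups, those outside the comparison included. A second fit used GC offsets, a spline with 6 degrees of freedom per library on the GC content of the longest transcript in GENCODE 29 (99.2% of tested genes matched), over genes of at least 1 CPM. Scripts were tested on simulated counts. The same replicate numbers did not pair the samples (correlation of deviations -0.058, -0.047 and -0.013). Alternatives were DESeq2 1.42.0, other normalizations, filters, thresholds and offsets, a replicate block, the 6 libraries alone, and leaving out each library. GC and sequence tables were made with Python 3.11.15, pandas 2.3.3 and numpy 2.4.6. The members and the 77 gene lists were chosen with earlier results of these data known. Named genes were those with the 10 largest differences in each direction among protein-coding genes that passed both fits without overlap at an average log2 CPM of at least 1, the autosomal zinc-dependent deacetylases, SMC3, THBS2, both mitochondrial rRNAs, and up to 3 genes per list and direction. BAX, CDKN1A, GCLC, HBE1, HBG2, LMO3, MDM2, MT1X, PCDHB2, PCDHB5, PCDHB6, PCDHB8, PCDHB12, PCDHB14, TXNRD1 and list members beyond 3 per direction were named after their values were seen, as were the stretches on chromosomes 6 and 7. Genes on X and Y were left out, apart from HDAC8.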

Additional observations from a re-analysis of the deposited data

Results flagged for a closer look

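For 13 of the genes with the largest differences, the contrast of 8CDm with WT cells on PCI-34051 differed from the contrast of 6CD2m with WT cells on Tubastatin A when the difference itself was tested as an interaction in edgeR. The genes were picked on the 8CDm minus WT difference, which is a term of the interaction. That many of them passed follows in part from this choice. Among genes that were higher in 8CDm cells, the interaction on the log2 scale was 3.56 for PAEP, 3.14 for PLCH1, 3.08 for NFASC and 2.46 for MMP9. TCN1 had an adjusted p of 0.00012 for the interaction, and it was lower in 6CD2m cells than in their WT cells, although that difference did not pass (adjusted p = 0.0023, edgeR). Among genes that were lower, the interaction was -9.57 for THBS2, -8.09 for OR52D1 and -5.01 for SH2D4A. For genes at the floor in 8CDm cells only the adjusted p is given, 5.4e-07 for PXDN, 1.7e-06 for ADGRL4, 1.3e-08 for CHST15, 1.4e-07 for ADAMTS2 and 0.0002 for SCIN. The interaction did not pass for CNTNAP4, DPPA4, PCDHB13, SRD5A2, PCDHB15, CPNE7 and EDNRA. CPNE7 was low in 6CD2m cells as well, at a mean of 0.423 CPM beside 11.9 CPM in WT cells on Tubastatin A. EDNRA was at 0.246 CPM beside 8.01 CPM. Of the genes whose interaction passed, PXDN, ADAMTS2, SCIN and SH2D4A were called lower in 6CD2m cells too. Their log2 differences there were -2.98, -1.70, -2.33 and -1.58. OR52D1 was called higher in 6CD2m cells (log2 difference 1.53), so its interaction is larger than its difference on PCI-34051. Both the mutant line and the compound differ between these contrasts.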

How the results depend on the processing

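The count of 2032 genes called in 8CDm against WT cells moved by more than 1.5 times under several settings. It was 1330 with a replicate block, 720 with only the 6 libraries compared (928 with GC offsets as well), 173 with a replicate block in these 6 libraries (444 with GC offsets), 3670 with DESeq2, 6758 at a false discovery rate of 0.05 and 1067 with an absolute log2 difference of at least 1. The same replicate numbers did not pair the samples. Leaving out 1 library gave 1083 to 2500 calls and 1265 to 2086 with GC offsets, each time with 2 samples in an arm. The count was 1083 without 8CDm replicate 1, 1151 without replicate 2 and 1161 without replicate 3, and it was 1247 without WT replicate 2, 1123 without WT replicate 3 and 2500 without WT replicate 1. With GC offsets the same omissions gave 1321, 1280 and 1265 for 8CDm replicates 1 to 3 and 1319 for WT replicate 3. With GC offsets and no library left out it was 1995. The 945 calls of the interaction became 1848 with DESeq2 and 3592 at a false discovery rate of 0.05, and leaving out 1 library gave 646 to 1498, the last without WT replicate 1 and with GC offsets. The cause of these changes was not tested, apart from the fewer samples and the other thresholds themselves. Every setting was run gene by gene for 32 genes, the 20 with the largest differences, the autosomal deacetylases, SMC3 and the mitochondrial rRNAs. Among these comparisons 759 kept their direction and side of the threshold, 13 came to pass it, 40 no longer passed and 0 reversed. HDAC9 no longer passed in 16, HDAC5 in 12 and TCN1 in 7. Depth limits statements on genes at or under 3 counts per library.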

Other observations

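Further lists held a few genes that passed both fits. Notch signalling had 3 of 21 genes higher and 0 lower, with the target HEY1 at 10.7, 9.86 and 10.4 CPM in 8CDm cells and 4.27, 4.55 and 4.19 CPM in WT cells (log2 difference 1.25 ± 0.18 SE, adjusted p = 8.5e-05) and HES2 at 2.16, 2.49 and 2.2 CPM in 8CDm cells and 0.213, 0.253 and 0.322 CPM in WT cells (log2 difference 3.1 ± 0.53 SE, adjusted p = 3.8e-04). In both the groups did not overlap, which passing the threshold nearly ensures, and HES2 had an adjusted p of 0.0014 (edgeR) with WT replicate 1 left out. ERBB4, a receptor of neuregulins, was at 4.33, 3.25 and 3.92 CPM in 8CDm cells and 0.48, 0.253 and 0.322 CPM in WT cells (log2 difference 3.4 ± 0.42 SE, adjusted p = 2.5e-05), and ANGPT1, the ligand of TEK, was at 0.171, 0.0542 and 0.215 CPM in 8CDm cells and 1.92, 1.77 and 1.22 CPM in WT cells (log2 difference -3.42 ± 0.56 SE, adjusted p = 2.8e-04). Their groups were apart as well. Among immediate early factors NR4A1 and NR4A2, orphan nuclear receptors, rose by 1.72 and 1.42 on the log2 scale, and FOSL1, an AP-1 subunit, fell by 1.19.

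Among chromatin genes KDM7A, a histone demethylase, was at 62.4, 63.8 and 60.1 CPM in 8CDm cells and 23.9, 17.9 and 21.1 CPM in WT cells (log2 difference 1.56 ± 0.14 SE, adjusted p = 7.2e-07), and SMARCA5, the ATPase of ISWI remodellers, was at 120.3, 129.6 and 126 CPM in 8CDm cells and 77.4, 48 and 55.7 CPM in WT cells (log2 difference 1.05 ± 0.20 SE, adjusted p = 8.7e-04). NSD1, a histone H3 lysine 36 methyltransferase, was lower (log2 difference -0.56 ± 0.08 SE, adjusted p = 1.2e-04). Of the interferon-stimulated genes 1 of 30 was higher, DDX58, the RNA sensor RIG-I (log2 difference 1.02 ± 0.17 SE, adjusted p = 3.7e-04, and 0.0028 with GC offsets and WT replicate 1 left out), and 1 lower, IFI6 (log2 difference -2.1 ± 0.30 SE, adjusted p = 9.3e-05). These shares are near the 3.6% higher and 3.9% lower over all genes tested.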
